A study of Arabidopsis thaliana with 12 samples.

Results

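The average of 3 cuticle mutants, bdg, fdh and lcr, was compared with wild type in young Arabidopsis rosette leaves, to describe which gene functions the mutants had in common. The comparison used all 12 arrays of the series, 9 from mutants and 3 from wild type, and all 22746 probe sets of the ATH1 array other than 64 controls of its maker. It was the mean of the 3 mutant group means, each of 3 arrays and with equal weight, minus the mean of the 3 wild-type arrays. The plant cuticle is a layer of the polyester cutin, filled and covered with waxes, which the epidermis lays down on the outer face of its walls and which holds water in and separates neighbouring organs. LCR is a cytochrome P450 that hydroxylates fatty acids, FDH resembles the condensing enzymes that lengthen them, and BDG is a protein of the alpha/beta-hydrolase fold found in the epidermal wall. Mutants in these genes are known for a leaky leaf surface and for leaves that fuse with each other.

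All plants were of the Columbia background. The bdg plants carried bdg-2, a deletion of 7 bp in the first exon, the fdh plants fdh-3940 (fdh-3940S1 in the study's text), an insertion of 2 bp in the first exon, and the lcr plants lcr-3P77, an insertion of 1169 bp in the 5′ UTR. Each mutant was thus represented by 1 allele. Plants were 5.5 weeks old and had grown on soil with 8 h of light and 16 h of dark at 20 °C and 18 °C. Each array measured leaves of 2 mm to 1 cm from 15 pooled plants, and material was harvested in 3 rounds, each with 1 sample per genotype. No treatment was applied to any group. Values are GCRMA expression values on the log2 scale, on which a difference of 1 is a 2-fold change. BDG, FDH and LCR had no probe set named in the annotation used, so the mutated genes were not used to check the labels.

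Array medians lay between 4.56 and 4.70, and a value under the lowest of them was not shown to be above background. The difference between the 3′ and the 5′ probe sets of actin, a measure of RNA integrity, was 5.98 on wild-type array 2, 6.07 on bdg array 1 and 6.27 on lcr array 1, against 4.64 to 5.11 on the other 9. The fdh group held no such array. Fits without these 3 arrays and with the actin difference as a covariate are given beside the counts they change. The labelled tissue, leaf, was checked by its defining genes. Of 6 photosynthesis genes named by the platform, 5 (PRK, RCA, PSAN, LHCB4.1 and LHCB4.2) had wild-type means between 13.00 and 14.24, while the root gene PYK10 and the meristem gene CLV3 lay at 2.24 and 2.09 in wild type, near the floor of the arrays. Plants were compared as whole leaves, so that fewer cells of a type and less RNA per cell cannot be told apart.

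On average over the mutants, 146 probe sets were higher and 41 were lower than in wild type (limma, Benjamini-Hochberg adjusted p under 0.05), which is 0.642% and 0.180% of all tested, or 0.822% in either direction. Of the 146 higher probe sets, 124 rose at least 2-fold, 65 at least 4-fold and 14 at least 16-fold, with a median of 1.81 and a maximum of 6.64 on the log2 scale, against a median of -0.72 for the 41 lower ones, of which 12 fell at least 2-fold. The median over all probe sets was -0.0013. For 58 of the 146 higher probe sets the wild-type mean was under the lowest array median. The size of those rises thus rests on a level not shown to be above background. With each array centred on its median, which lowers the mutants against wild type by about 0.09, 132 were higher and 69 lower. Without wild type replicate 1, 65 were higher and 20 lower, without wild type replicate 2, 97 were higher, and without fdh replicate 2, 90 were higher and 20 lower. Leaving out any other mutant array except fdh replicate 3 brought the number lower to between 24 and 27. Of the 65 and 20 called without wild type replicate 1, 61 and 7 were among the 146 and 41. Only 53 of the 146 higher and 4 of the 41 lower probe sets kept their call without every single array. In the average of bdg and lcr alone, 73 were higher and 14 lower. With the replicate number as a block in the fit, 202 were higher and 57 lower.

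The counts also moved in the fits that used the actin difference, and whether RNA integrity was the cause was not tested. Without the 3 arrays of largest actin difference 57 probe sets were higher and 40 lower, without wild type array 2 and bdg array 1 90 were higher and 44 lower, and with the actin difference as a covariate 208 were higher and 70 lower. Near-equal numbers of lower probe sets were not the same probe sets. Those also called in the main fit were 43 of the 57 and 13 of the 40 without the 3 arrays. They were 74 of the 90 and 16 of the 44 without wild type array 2 and bdg array 1. With the covariate they were 142 of the 208 and 39 of the 70. Of the 67 calls of genes named below, 39 did not pass without the 3 arrays, a fit with 9 arrays in all, and 2 did not pass with the covariate. Calls that passed without any single array but not without these 3 were those of LEA7 (adjusted p = 0.0654), GASA1 (0.143), PGIP1 (0.0683), TPS10 (0.12), At1g64380 (0.0855), CER1 (0.133) and At5g14920 (0.0641).

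**Figure D1:**
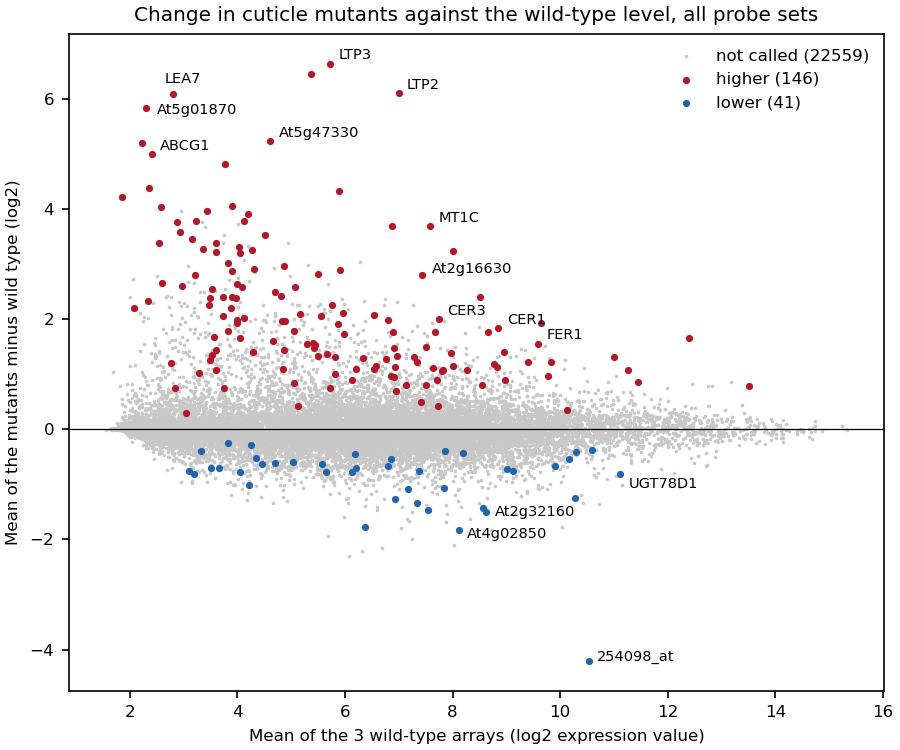
Average log2 change in the mutants (vertical axis) against the mean log2 value of the 3 wild-type arrays (horizontal axis) for 22746 probe sets. The 146 higher ones (red) reach 6.64, 58 of them from wild-type means under the lowest array median, and of the 41 lower ones (blue) only probe set 254098_at, which is without a gene name here, fell by more than 2.

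The called probe sets were chosen by a test of these same arrays, so how far their arrays separate and share a sign is description only. All 9 mutant arrays lay above all 3 wild-type arrays for 134 of the 146 higher probe sets and below them for 38 of the 41 lower ones. Over all 22746 probe sets this was so for 330 (1.45%) and 144 (0.633%), and with median centring for 266 and 371. All 3 mutant means had the sign of the average in 144 of the 146 and 40 of the 41, and the mean of fdh was the farthest from wild type in 97 of the higher probe sets, that of lcr in 41 and that of bdg in 8. The median change of the higher probe sets was 1.38, 2.25 and 1.85 in bdg, fdh and lcr. Tested against wild type alone (limma adjusted p under 0.05), 20 of the 146 passed in bdg, 135 in fdh and 71 in lcr. Only 19 passed in all 3 mutants. Of the 41 lower probe sets, 4, 35 and 14 passed in bdg, fdh and lcr, and 3 in all of them. A shared sign is thus not a call in each mutant. Of the 187 called probe sets, 8 (4.28%) also differed among the mutants by limma's moderated F test, which called 51 of all probe sets (0.224%). That number was between 13 and 39 without any 1 other array and 218 without fdh replicate 3.

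Gene names came from the platform annotation for 59 of the higher and 24 of the lower probe sets. A further 58 higher ones, and none of the lower, could be named only through the study's own table of genes that had risen, so the names favour increases. The counts of list members below use genes named by the platform alone, of which 0.437% were higher and 0.178% lower over 13513 probe sets, and members named through the study's table are given as description. At these shares, a list in which no member passed is no result about that list. The lists were chosen with earlier results of these data known, so calls among their members are description as well.

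The lipid transfer proteins, small secreted proteins that bind fatty acids and other lipids in the wall, were among the largest increases. Of 5 members named by the platform 2 rose, with a median change of 2.06. At5g01870 read 2.09, 2.89 and 1.96 on the wild-type arrays, 8.21, 8.94 and 8.59 in bdg, 8.43, 7.55 and 7.77 in fdh and 8.46, 7.78 and 7.54 in lcr. The 9 mutant values lay close together and far above those of wild type, with an average change of 5.83 for At5g01870 (SE 0.29, limma adjusted p = 1.45e-04). Its wild-type values were all under the array medians. At1g48750 rose by 2.06 (SE 0.19, adjusted p = 0.00336), from 6.42 to 6.66 in wild type to between 8.10 and 8.94 in the mutants. At3g22620 changed by 2.65 without passing the test (adjusted p = 0.11), and At5g48490 and At2g18370 by 0.57 and 0.01.

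LTP3, LTP4 and LTP2, named through the study's table, rose by 6.64 (SE 1.04), 6.45 (SE 0.86) and 6.10 (SE 0.76), with adjusted p of 0.0254, 0.012 and 0.0095. LTP2 read 4.51, 9.27 and 7.20 on the wild-type arrays and between 12.51 and 13.82 on the 9 mutant arrays. The wild-type arrays of these genes were thus far apart, array 2 being the highest and array 1 the lowest in each, while the mutant arrays lay close together. LTP3 and LTP4 showed the same with 2.18, 8.42 and 6.60 and with 2.49, 7.73 and 5.91 in wild type, against mutant values of 11.17 to 13.63 and 11.05 to 12.71. At3g22600 (LTPG5), a lipid transfer protein anchored to the membrane, rose by 5.19 (SE 0.48, adjusted p = 0.0034) from a wild-type mean of 2.22, under the array medians. AZI1, a related secreted protein of systemic immunity and the last of the 5 members named through the study's table, rose by 3.01 (SE 0.50, adjusted p = 0.0328), a call that ended without any 1 of 8 arrays (adjusted p 0.0578 to 0.141, all but bdg replicate 2, fdh replicate 3 and lcr replicates 1 and 3). The call for LTP3 ended without any 1 of 8 arrays (adjusted p 0.0527 to 0.0652), the exceptions being wild type replicates 1 and 2, fdh replicate 3 and lcr replicate 3.

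**Figure D2:**
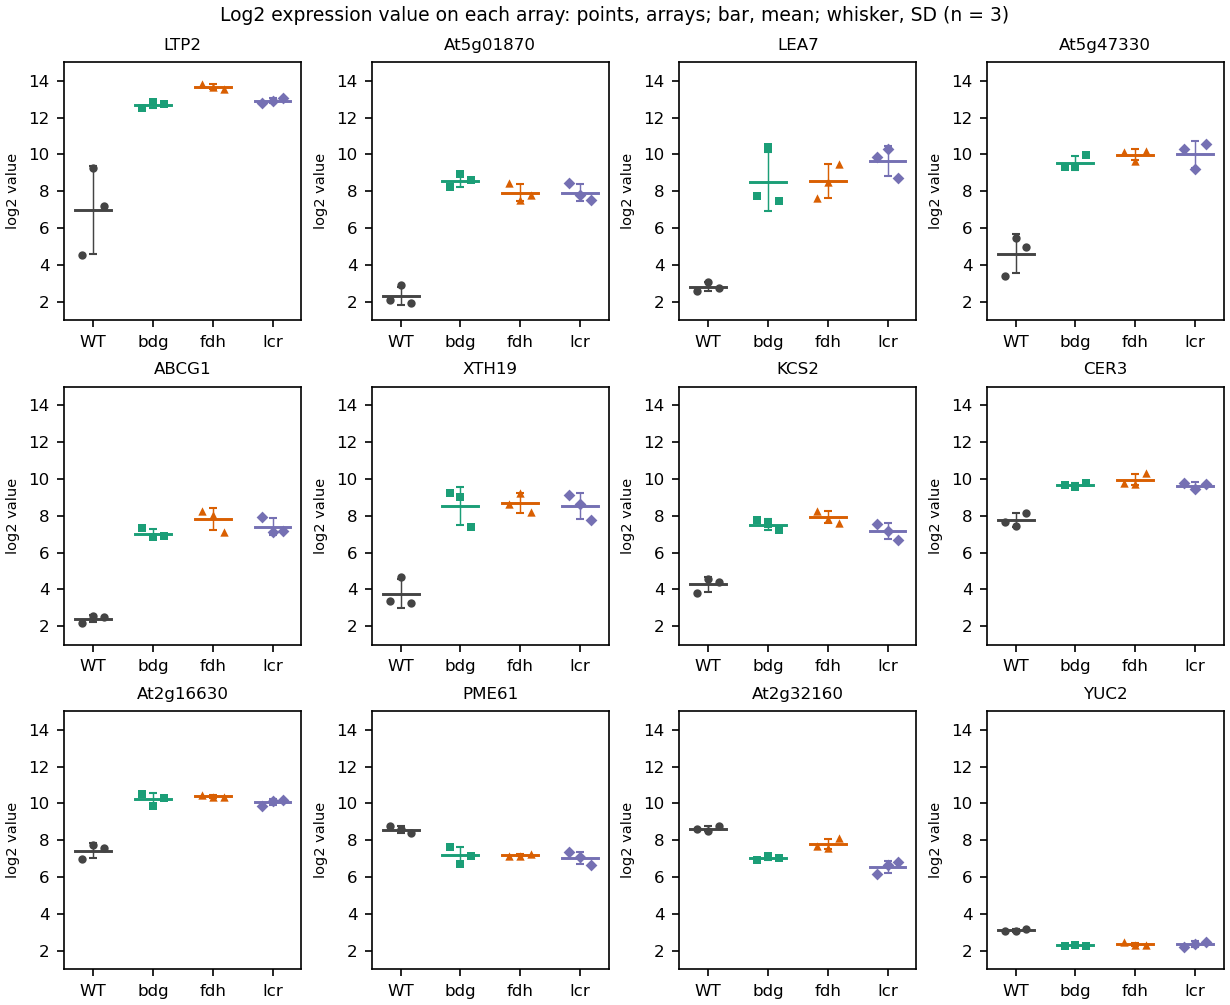
Log2 expression value of 12 genes on each array, by genotype, with the mean (bar) and SD (whisker) of 3 arrays. In each panel the 9 mutant arrays lie on one side of the 3 wild-type arrays, for example at least 12.51 against at most 9.27 for LTP2, and at most 2.49 against at least 3.05 for YUC2. All 12 genes are calls from these same arrays, so the separation follows in part from their choice.

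Of 23 genes on the wax list, 1 was named by the platform and was not called. Another 6 were named only through the study's table of genes that had risen. On average over the mutants 5 of these rose, a count largely fixed by that naming. Very long-chain fatty acids are built by condensing enzymes such as KCS2 and are then turned into alkanes with CER1 and CER3 or into alcohols by CER4. KCS2 (DAISY) read 3.82, 4.59 and 4.40 in wild type, 7.79, 7.54 and 7.23 in bdg, 8.28, 7.83 and 7.63 in fdh and 7.57, 7.16 and 6.70 in lcr, an average rise of 3.26 (SE 0.23, adjusted p = 0.00112). CER4 rose as much, by 3.26 (SE 0.34, adjusted p = 0.00475), with 3.59, 3.16 and 3.03 in bdg, fdh and lcr. CER3 rose by 2.00 (SE 0.17, adjusted p = 0.002) from 7.68, 7.42 and 8.15 in wild type to between 9.44 and 10.31 in the mutants. The mutants did not differ detectably among themselves for any of the 3 (F test adjusted p of 0.592, 1 and 0.972).

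CER1 had 2 probe sets. One rose by 1.83 (SE 0.23, adjusted p = 0.0102), with 1.89, 1.80 and 1.81 in bdg, fdh and lcr, and the other changed by 1.93 with a larger error (SE 0.64, adjusted p = 0.327). Against wild type alone, the bdg change passed the test for KCS2, CER4 and CER3 (adjusted p 0.00683, 0.0197 and 0.0177) and not for CER1 (0.0688). MYB96, a regulator of wax genes in dry conditions, rose by 1.55 (SE 0.26, adjusted p = 0.0341), from 5.24 to 5.35 in wild type to between 6.05 and 7.71, though neither bdg (adjusted p = 0.715) nor lcr (0.12) passed alone. Its call ended without any 1 of 9 arrays (adjusted p 0.0524 to 0.144), the exceptions being bdg replicate 1, fdh replicate 3 and lcr replicate 3. FAR1, a reductase that makes fatty alcohols, changed by 2.25 (SE 0.57, adjusted p = 0.163). The wax ester synthase WSD1, the only wax gene named by the platform, changed by 0.51 (SE 0.45, adjusted p = 0.969). The other 6 wax genes, KCS2, CER4, CER3, CER1, MYB96 and FAR1, were named through a table of genes that had risen, so their direction is not independent evidence on the pathway.

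Cutin genes with a platform name were 2, and neither passed the test. SHN3, a factor of the SHINE group that turns on cuticle genes, changed by 0.25 (SE 0.44), with -0.35 in bdg and 0.92 in fdh, and At5g33370, a GDSL-type enzyme of cutin assembly, by -0.14 (SE 0.10) from a wild-type mean of 2.03, near the floor. Outside the lists, and chosen after their values were seen, 2 genes from families with cuticle roles rose: At5g51950, related to the oxidoreductase HOTHEAD, by 1.67 (SE 0.16, adjusted p = 0.00402), and At2g04570, a GDSL-type lipase, by 1.77 (SE 0.24, adjusted p = 0.012). The call for At2g04570 ended without wild type replicate 1 (adjusted p = 0.066). ABCG1, named through the study's table, is a transporter of the family that exports cuticle and suberin lipids. It read 2.18, 2.53 and 2.52 in wild type, 7.33, 6.83 and 6.88 in bdg, 8.24, 8.05 and 7.14 in fdh and 7.93, 7.13 and 7.15 in lcr. Its average change was 5.00 (SE 0.26, adjusted p = 1.45e-04), and no mutant array came within 4 units of a wild-type one. The wild-type values of ABCG1 were all under the array medians, so the size of this gap depends on the floor of the arrays. At5g47330, an alpha/beta-hydrolase of the palmitoyl-protein thioesterase family, rose by 5.23 (SE 0.44, adjusted p = 0.002) from 3.42, 5.47 and 4.96 in wild type to between 9.18 and 10.55, with near-equal changes of 4.91, 5.37 and 5.40 in bdg, fdh and lcr.

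Proteins and enzymes of the cell wall changed in both directions. Among structural proteins, 2 of 3 members named by the platform rose. The proline-rich At2g16630 read 6.97, 7.75 and 7.57 in wild type and between 9.85 and 10.50 in the mutants, a rise of 2.79 (SE 0.18, adjusted p = 5.78e-04). The glycine-rich At4g21620 rose by 2.40 (SE 0.33, adjusted p = 0.0138), a call that ended without wild type replicate 1 (adjusted p = 0.0585). At2g05540, also glycine-rich, changed by 2.56 without passing (adjusted p = 0.157). From the study's table, the glycine-rich GRP5 rose by 3.77 (SE 0.34, adjusted p = 0.00326) and the extensin EXT4, which cross-links in the wall, by 2.80 (SE 0.51, adjusted p = 0.0466). EXT4 read 7.32, 4.16 and 5.89 on the bdg arrays and between 5.60 and 6.67 on those of fdh and lcr, and its call ended without any 1 of 10 arrays (adjusted p 0.0682 to 0.175), all but bdg replicates 1 and 2. AGP2, an arabinogalactan protein, rose by 2.39 (SE 0.44, adjusted p = 0.0483) and did not pass without any 1 of 10 arrays (adjusted p 0.0648 to 0.16, all but lcr replicates 1 and 3).

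The xyloglucan endotransglucosylases, which cut and rejoin the chains between cellulose fibrils, had 2 of 7 platform members higher, with a median of 0.89. XTH19 read 3.36, 4.68 and 3.25 in wild type and between 7.37 and 9.26 in the mutants, with 4.78, 4.93 and 4.74 in bdg, fdh and lcr (average 4.82, SE 0.49, adjusted p = 0.00437). XTH27, listed as EXGT-A3, rose by 0.89 (SE 0.12, adjusted p = 0.012), a call that ended without wild type replicate 2 (adjusted p = 0.051). XTH18 changed by 3.73 with a large error (SE 1.08, adjusted p = 0.241), and XTH33, XTH16, XTH32 and XTH20 by between 0.05 and 0.93. XTH15, from the study's table, had an average of 2.65 (SE 0.47, adjusted p = 0.0427), made up of 0.70, 3.50 and 3.76 in bdg, fdh and lcr. Its bdg arrays read 2.68, 3.21 and 4.02 and overlapped the wild-type range of 2.21 to 3.25, and its call ended without any 1 of 10 arrays (adjusted p 0.0528 to 0.18), all but fdh replicate 3 and lcr replicate 2.

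Expansins loosen the wall during growth. Of 11 members named by the platform none passed the test in either direction, at a median change of -0.02, which at a background of 0.614% called is no result about the list. The largest difference, 3.38 for the expansin-like EXLA1, came with an SE of 1.08 (adjusted p = 0.304), and the alpha-expansin EXPA15 changed by -0.81 (SE 0.48, adjusted p = 0.737). On pectin, PME61, a pectin methylesterase, fell: it read 8.75, 8.58 and 8.37 in wild type, 7.62, 6.73 and 7.17 in bdg, 7.15, 7.17 and 7.24 in fdh and 7.35, 7.08 and 6.68 in lcr. Its change of -1.44 (SE 0.19, adjusted p = 0.0113) was -1.40, -1.38 and -1.53 in the single mutants, and the call ended without wild type replicate 1 (adjusted p = 0.066). PGIP1, an inhibitor of the polygalacturonases that microbes use on pectin, rose by 2.40 (SE 0.30, adjusted p = 0.00978, study's table). TBL36, of the family that acetylates wall polymers, changed by -0.81 (SE 0.15, adjusted p = 0.0483) between levels that were all under the array medians, and its call ended without any 1 of 11 arrays (adjusted p 0.0517 to 0.109), all but wild type replicate 2.

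Genes of water deficit and abscisic acid mostly lay above wild type without passing the test. None of 5 platform members was called, although their median change was 1.49, with 3.52 for At3g02480 (SE 0.90, adjusted p = 0.168) and 2.00 for the dehydrin LTI30 (SE 0.70, adjusted p = 0.36). From the study's table, the late embryogenesis abundant gene LEA7 (At1g52690), whose proteins accumulate in drying tissue, rose by 6.09 (SE 0.65, adjusted p = 0.00475). It read 2.61, 3.09 and 2.73 in wild type, 7.72, 10.40 and 7.46 in bdg, 7.65, 8.51 and 9.50 in fdh and 9.87, 10.29 and 8.71 in lcr, so that the mutant arrays spread over 3 units and all were above wild type. RD26, a NAC factor of abscisic acid responses, rose by 3.20 (SE 0.48, adjusted p = 0.0197, study's table). Its call ended without any 1 of wild type replicates 1 and 3 and lcr replicate 2 (adjusted p 0.0889, 0.0551 and 0.0536).

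Other transcription factors followed. RAP2.6, an ERF-type factor named through the study's table, read 2.33 to 2.38 in wild type and between 4.30 and 7.67 in the mutants. Its change of 4.38 (SE 0.57, adjusted p = 0.0113) was a call that ended without wild type replicate 1 (adjusted p = 0.0602). At1g64380, another AP2/ERF protein and the only platform member of its list, rose by 1.96 (SE 0.21, adjusted p = 0.00489), and Rap2.6L by 1.92 (SE 0.34, adjusted p = 0.0455). The call for Rap2.6L ended without any 1 of 10 arrays (adjusted p 0.0581 to 0.185), all but bdg replicates 2 and 3. Of 4 WRKY factors named by the platform, WRKY47 rose, by 2.60 (SE 0.42, adjusted p = 0.0286), and WRKY6, WRKY22 and WRKY53 changed by 1.47 to 1.96 without passing. The call for WRKY47 ended without any 1 of 10 arrays (adjusted p 0.0517 to 0.0944), all but fdh replicates 1 and 3. WRKY60, a factor that modulates defence and abscisic acid responses, rose by 3.59 (SE 0.38, adjusted p = 0.00475, study's table). BT4, a BTB and TAZ domain protein, rose by 4.05 (SE 0.34, adjusted p = 0.002, study's table), with 4.15, 3.82 and 4.19 in bdg, fdh and lcr.

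**Figure D3:**
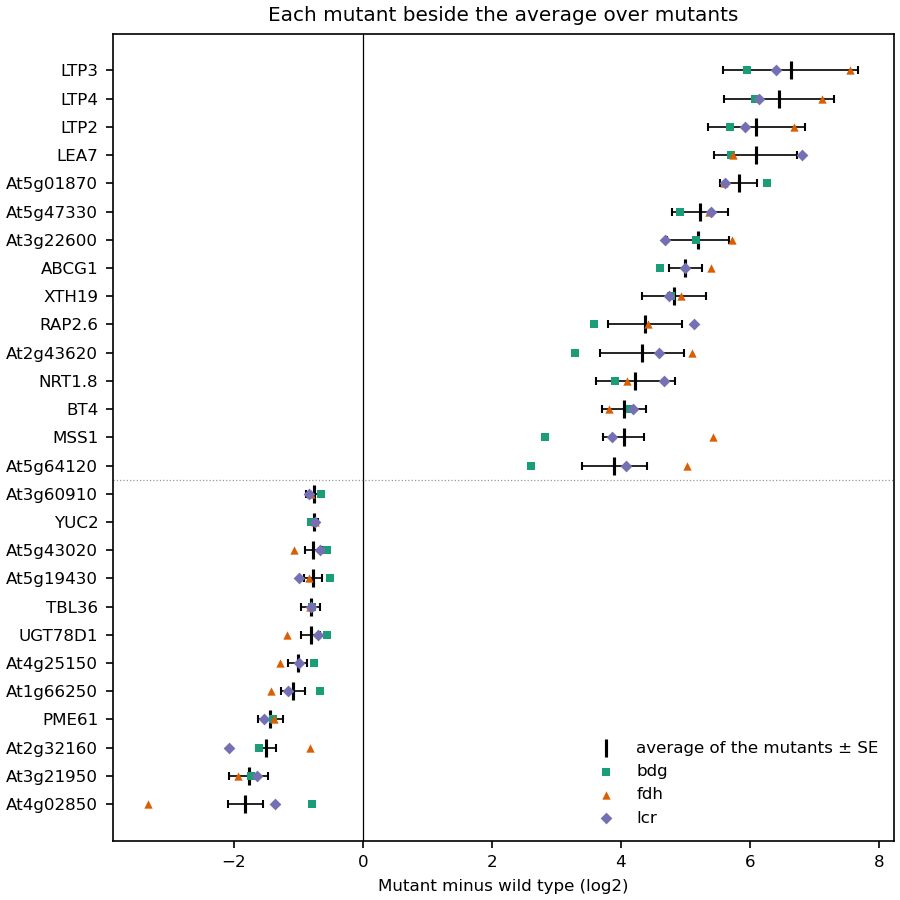
Change against wild type on the log2 scale (horizontal axis) in bdg (squares), fdh (triangles) and lcr (diamonds) for the 15 largest named increases and 12 largest named decreases whose arrays did not overlap, with the average over mutants and its SE (bar and whisker). The mutants lie close to each other for BT4, XTH19 and YUC2 and are widely apart for MSS1 (STP13), At5g64120 and At4g02850.

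Defence enzymes and inhibitors rose for part of their lists. Of 5 chitinases and inhibitors named by the platform, At2g43620, of the chitinase family, rose by 4.33 (SE 0.65, adjusted p = 0.0197), from 4.15, 6.89 and 6.65 in wild type to 8.56, 8.36 and 10.65 in bdg and between 9.96 and 11.17 in fdh and lcr. The call ended without wild type replicate 1 (adjusted p = 0.0556) and fdh replicate 2 (0.0539). The trypsin inhibitor TI1 rose by 2.26 (SE 0.38, adjusted p = 0.0332, study's table), a call that held only without a bdg array (adjusted p 0.0513 to 0.15 without any of the 9 others). Of 3 genes of the peroxidase list, At5g64120 (peroxidase 71) rose by 3.90 (SE 0.51, adjusted p = 0.0113), with 2.60, 5.02 and 4.07 in bdg, fdh and lcr, and PRX52 by 2.20 (SE 0.39, adjusted p = 0.042), with 2.52, 2.75 and 1.34. Peroxidases of this class use hydrogen peroxide to join or loosen wall components. Without wild type replicate 1 the call for At5g64120 ended (adjusted p = 0.0623), and that for PRX52 ended without any 1 of 9 arrays (adjusted p 0.0612 to 0.162), all but the replicate 3 arrays of the mutants. ELI3-2, an alcohol dehydrogenase induced by elicitors, rose by 3.52 (SE 0.43, adjusted p = 0.00946, study's table), with 3.44, 3.42 and 3.71 in bdg, fdh and lcr. It did not pass without wild type replicate 1 (adjusted p = 0.0541).

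No member of the lists of surface immune receptors, salicylic acid, cold and senescence passed. At 0.822% of all probe sets called, this is no result about these lists. BGL2 (PR2), a glucanase induced by salicylic acid, changed by 1.99 (SE 0.77, adjusted p = 0.44), with 1.04, 3.88 and 1.04 in bdg, fdh and lcr. MLO12, a membrane protein of powdery mildew susceptibility, changed by 3.67 (SE 0.72, adjusted p = 0.0662) with all 9 mutant arrays above wild type, and the senescence gene SAG13 by 2.24 (SE 0.43, adjusted p = 0.0601). Smaller or more uneven differences were those of the zinc finger factor RHL41 (2.15, adjusted p = 0.201), the ethylene synthesis gene ACS8 (1.81, adjusted p = 0.117), the calcium exchanger CAX3 (2.79, adjusted p = 0.0633) and the glutathione transferase GSTU6 (1.26, adjusted p = 0.07). None of 4 genes of touch and calcium and none of 6 glutathione transferases named by the platform passed, at medians of 1.03 and -0.04.

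Some hormone genes were called, in both directions. YUC2, a flavin monooxygenase that makes auxin, read 3.09, 3.05 and 3.17 in wild type, 2.27, 2.33 and 2.27 in bdg, 2.46, 2.30 and 2.33 in fdh and 2.19, 2.37 and 2.49 in lcr. All its values were under the array medians, and its change of -0.77 had a small error (SE 0.06, adjusted p = 0.002). It was the only one of 4 auxin genes of the platform to pass, and the other 3, GH3.3, WES1 (GH3.5) and IAA29, changed by 2.50, 2.29 and 1.12. DFL1 (GH3.6), which joins auxin to amino acids, rose by 2.37 (SE 0.37, adjusted p = 0.0254, study's table), a call that ended without any wild-type array and without bdg replicate 2, lcr replicate 1 or lcr replicate 2 (adjusted p 0.0534 to 0.0886). Of gibberellin genes, none of the 3 receptor genes named by the platform passed. From the study's table, GASA1 and GASA14 (At5g14920), small cysteine-rich proteins that gibberellin induces, rose by 3.69 (SE 0.48, adjusted p = 0.0113) and 1.77 (SE 0.20, adjusted p = 0.00705), and GA2OX6, which inactivates gibberellin, by 3.37 (SE 0.35, adjusted p = 0.00437). AOC3, of jasmonate synthesis, rose by 2.41 (SE 0.36, adjusted p = 0.0193, study's table), with 1.17, 3.20 and 2.87 in bdg, fdh and lcr. Its call ended without any 1 of wild type replicates 1 and 3 and fdh replicate 2 (adjusted p 0.0963, 0.0677 and 0.0517). Of cytokinin genes, ARR15, a response regulator, changed by -1.18 (SE 0.31, adjusted p = 0.187).

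Genes of sugar, nitrate and metal handling were also among those that rose, most of them named through the study's table. STP13, listed as MSS1, carries hexoses into the cell with protons. It read 1.93, 2.79 and 3.06 in wild type, 4.71, 6.26 and 5.29 in bdg, 7.93, 7.85 and 8.29 in fdh and 6.39, 6.65 and 6.33 in lcr, an average rise of 4.04 (SE 0.32, adjusted p = 0.002) in which the fdh arrays were all the highest. SIP2, which splits raffinose, rose by 2.96 (SE 0.34, adjusted p = 0.00705) and the trehalose phosphate synthase TPS10 by 2.06 (SE 0.26, adjusted p = 0.0095). The nitrate transporters NRT1.8 and NRT2.6 rose by 4.22 (SE 0.61, adjusted p = 0.0171) and 3.37 (SE 0.39, adjusted p = 0.00695). The 3 wild-type arrays of NRT1.8 lay between 1.81 and 1.94, and without any 1 of them its call ended (adjusted p 0.0575 to 0.0833).

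Of 3 metal genes named by the platform 2 rose. MT1C, a metallothionein that binds copper and zinc, read 7.50, 8.07 and 7.17 in wild type, 11.37, 12.41 and 10.20 in bdg, 10.30, 10.69 and 10.61 in fdh and 12.54, 12.17 and 11.04 in lcr, an average rise of 3.68 (SE 0.45, adjusted p = 0.0095) whose call ended without wild type replicate 1 (adjusted p = 0.0541). CCS, the copper chaperone of superoxide dismutase, rose by 1.19 (SE 0.20, adjusted p = 0.0327), with 1.11, 1.32 and 1.14 in bdg, fdh and lcr, and its call ended without any 1 of 9 arrays (adjusted p 0.052 to 0.13), all but wild type replicate 1, bdg replicate 1 and fdh replicate 3. Genes with a high wild-type level also included At2g38870, a protease inhibitor of the potato type, which rose by 1.93 (SE 0.28, adjusted p = 0.0174), and At1g29670, a GDSL-type lipase, which rose by 1.08 (SE 0.17, adjusted p = 0.0237). Without any 1 wild-type array the call for At2g38870 ended (adjusted p 0.0512 to 0.0727), and that for At1g29670 ended without any 1 of 6 arrays (adjusted p 0.0507 to 0.115), the wild-type arrays, bdg replicates 1 and 3 and fdh replicate 2.

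**Figure D4:**
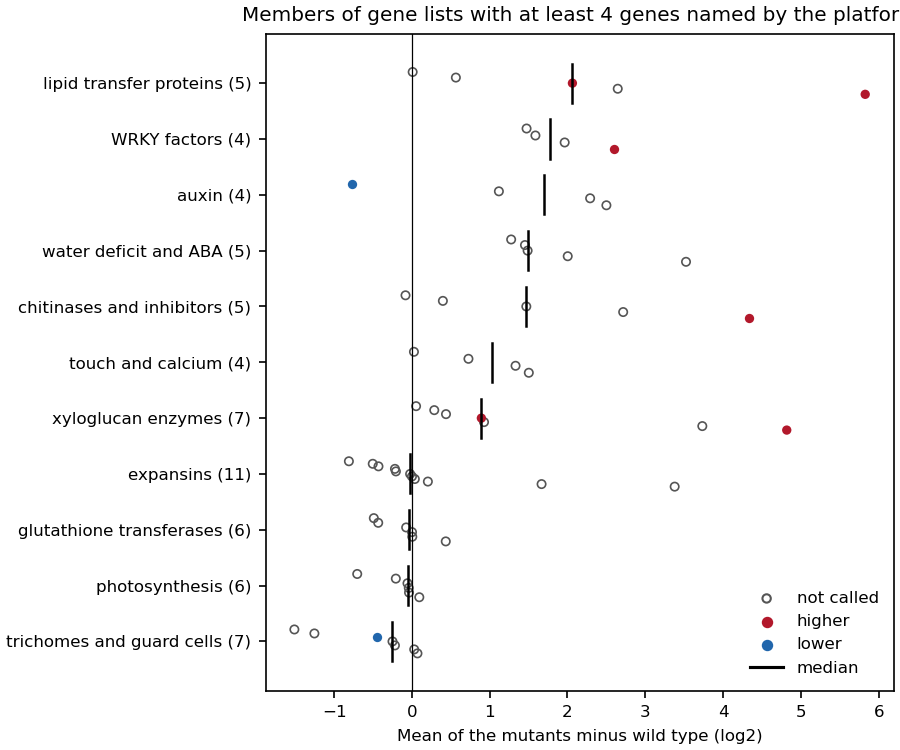
Average log2 change in the mutants (horizontal axis) for each member of the 11 lists with at least 4 genes named by the platform, whose number stands in brackets. Filled points passed the test (red higher, blue lower) and black lines are medians, which run from 2.06 for lipid transfer proteins to -0.25 for genes of trichomes and guard cells, while those of expansins, glutathione transferases and photosynthesis lie close to 0.

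The decreases were smaller. The 2 largest among named genes were At4g02850, of the PhzF-like protein family, with -1.83 (SE 0.27, adjusted p = 0.0194), and At3g21950, a methyltransferase of the SABATH family, with -1.77 (SE 0.30, adjusted p = 0.0363). At3g21950 read 5.85, 6.05 and 7.22 in wild type and between 4.20 and 5.17 in the mutants, with -1.74, -1.93 and -1.64 in bdg, fdh and lcr. At2g32160, another methyltransferase, read 8.62, 8.50 and 8.74 in wild type and fell to between 6.18 and 8.12, by 1.50 on average (SE 0.15, adjusted p = 0.00434). The call for At4g02850 ended without wild type replicate 1 or 3 (adjusted p 0.0886 and 0.0691), and that for At3g21950 without any 1 of 10 arrays (adjusted p 0.0575 to 0.0851), all but bdg replicate 3 and fdh replicate 3.

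UGT78D1, which adds rhamnose to flavonols, read 11.39, 10.94 and 11.02 in wild type and between 9.86 and 10.93 in the mutants, so that bdg replicate 2, the highest mutant array, nearly reached the lowest wild-type array (average -0.81, SE 0.15, adjusted p = 0.0455). Its relative UGT78D2 changed by -1.07 (SE 0.52, adjusted p = 0.603). At1g66250, a glucanase-like protein, and At4g25150, an acid phosphatase, fell by 1.09 (SE 0.18, adjusted p = 0.0347) and 1.01 (SE 0.15, adjusted p = 0.0192), the latter between levels under the array medians. The remaining named decreases of this rank, At5g19430, At5g43020 (a receptor-like kinase) and At3g60910 (a methyltransferase), were -0.78, -0.77 and -0.76, with adjusted p of 0.0445, 0.0427 and 0.0328. Calls ended for UGT78D1 without any 1 of 10 arrays (adjusted p 0.0664 to 0.177, all but bdg replicates 2 and 3), for At1g66250 without any 1 of 8 (0.0558 to 0.15, all but fdh replicates 1 and 3 and lcr replicates 2 and 3), for At4g25150 without any wild-type array or fdh replicate 2 (0.0516 to 0.0745), for At5g19430 without any 1 of 11 (0.0525 to 0.181, all but lcr replicate 1), for At5g43020 without any 1 of 10 (0.0519 to 0.155, all but wild type replicate 2 and lcr replicate 3) and for At3g60910 without any 1 of 10 (0.0534 to 0.144, all but wild type replicate 3 and fdh replicate 3).

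Further decreases were called among genes with high wild-type levels. At1g21065 and At1g68660, the latter a ClpS adaptor of the plastid protease, changed by -0.38 (SE 0.05, adjusted p = 0.012) and -0.41 (SE 0.06, adjusted p = 0.0175), and both calls ended without wild type replicate 1 (adjusted p 0.0591 and 0.0886) or 3 (0.0501 and 0.0642). At1g52870, a membrane protein of the Mpv17 family, changed by -0.67 (SE 0.11, adjusted p = 0.0332), but by -0.16 in fdh, whose arrays overlapped wild type, against -0.80 in bdg and -1.06 in lcr. The receptor-like kinase At3g56370 changed by -0.76 (SE 0.13, adjusted p = 0.0347). The call for At1g52870 ended without any 1 of 8 arrays (adjusted p 0.0589 to 0.146, all but bdg replicates 1 and 3 and fdh replicates 1 and 3), and that for At3g56370 without any 1 of 11 (0.0512 to 0.146, all but fdh replicate 3). The largest decrease of all, -4.21 (SE 0.74, adjusted p = 0.0427) at probe set 254098_at, has no gene name in the annotation used. That probe set read 11.07, 9.26 and 11.26 in wild type, 5.48, 6.01 and 7.09 in bdg, 2.84, 6.49 and 5.24 in fdh and 7.50, 8.47 and 7.78 in lcr, and its call ended without any 1 of 10 arrays (adjusted p 0.051 to 0.179, all but fdh replicates 1 and 2).

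Few genes of photosynthesis or of other cells and organs passed the test. With 0.614% of platform-named probe sets called, this is no result about them. None of 6 photosynthesis genes passed (median -0.05), the lowest being LHCB4.3, an antenna protein, with -0.70 (SE 0.22, adjusted p = 0.282), and none of 69 plastid-encoded probe sets, with a median of -0.25. Their median level lay between 11.25 and 12.49 on the wild-type arrays, 11.29 and 12.09 in bdg, 10.95 and 11.82 in fdh and 11.39 and 11.92 in lcr, and these ranges overlapped. Of 7 genes of trichomes and guard cells, the trichome regulators GIS and TRY changed by -1.51 (SE 0.39, adjusted p = 0.174) and -1.25 (SE 0.42, adjusted p = 0.335), and ATMYC1 was called as described below. The guard cell genes FMA, MUTE and SPCH changed by 0.07, 0.03 and -0.22. The mitotic kinase AUR1 changed by -0.51 (SE 0.18, adjusted p = 0.385), the cellulose deposition gene COB by 0.55 (SE 0.33, adjusted p = 0.75) and the leaf polarity gene YAB3 by -0.03 (SE 0.30). The clock gene GI, the heat shock gene ATHSP22.0, PYK10 and CLV3 lay between 0.22 and -0.02, and the reference gene At4g34270 at 0.11 (SE 0.09, adjusted p = 0.92). Of 2 glucosinolate genes, BCAT4 changed by 1.62 (SE 0.87, adjusted p = 0.68). Of 2 genes of microRNA processing, DDL changed by -0.44 (SE 0.13, adjusted p = 0.257) and SE by 0.15. Of the 45 lists, 5 had no member named by the platform and 29 had 1 to 3, so most were thinly covered. Over all of them, 13 of 112 platform genes were higher and 2 lower, against 7 and 1 without wild type replicate 1. Among all platform-named probe sets, 0.437% were higher and 0.178% lower. As the lists were chosen with earlier results of these data known, no excess of calls in them can be read from this count.

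Whether the mutants differed in a gene was addressed by the F test, comparing the mutants with each other. In all 6 named genes that passed both tests, fdh was the farthest from wild type. ATMYC1, a bHLH factor of the epidermis, read 6.25, 6.17 and 6.14 in wild type, 6.10, 6.14 and 6.27 in bdg, 4.74, 4.82 and 4.66 in fdh and 6.11, 6.34 and 6.38 in lcr (F test adjusted p = 4.14e-04), so its average of -0.45 (SE 0.06, adjusted p = 0.0162) rests on fdh, and without fdh it was 0.04. CRK7, a receptor-like kinase, and At1g57630, a TIR domain protein, changed by 1.87 and 2.12 in fdh against -0.01 and -0.07 in bdg and 0.35 and 0.45 in lcr (F test adjusted p = 0.00212 for each), and the F-box gene At2g27310 by 0.81 in fdh against 0.02 and 0.08 (0.00212). Their averages of 0.74, 0.83 and 0.30 had adjusted p of 0.0193, 0.0228 and 0.0306. FER1 and At4g02850 changed in one direction in all mutants. FER1, the ferritin that stores iron in plastids, rose by 0.91, 2.74 and 1.01 in bdg, fdh and lcr (average 1.55, SE 0.22, adjusted p = 0.0144, F test adjusted p = 0.0496), and At4g02850 fell by 0.79, 3.33 and 1.37 (F test adjusted p = 0.044).

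Without single arrays the averages of these genes often failed the threshold: ATMYC1 without wild type replicate 1 (adjusted p = 0.0862) or 2 (0.0554), FER1 without wild type replicate 1 (0.0541) or 2 (0.0597), CRK7 without wild type replicate 1 (0.0968) or 3 (0.0689) or fdh replicate 2 (0.052), At1g57630 without any wild-type array, bdg replicate 3 or fdh replicate 2 (0.0505 to 0.109) and At2g27310 without any 1 of 9 arrays (0.0528 to 0.103, all but wild type replicate 2, fdh replicate 3 and lcr replicate 1). The F test of ATMYC1, CRK7, At1g57630 and At2g27310 passed without every single array (adjusted p of at most 0.0159), while that of FER1 passed only without wild type replicate 1 or 3 or fdh replicate 3, and that of At4g02850 only without fdh replicate 3.

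**Figure D5:**
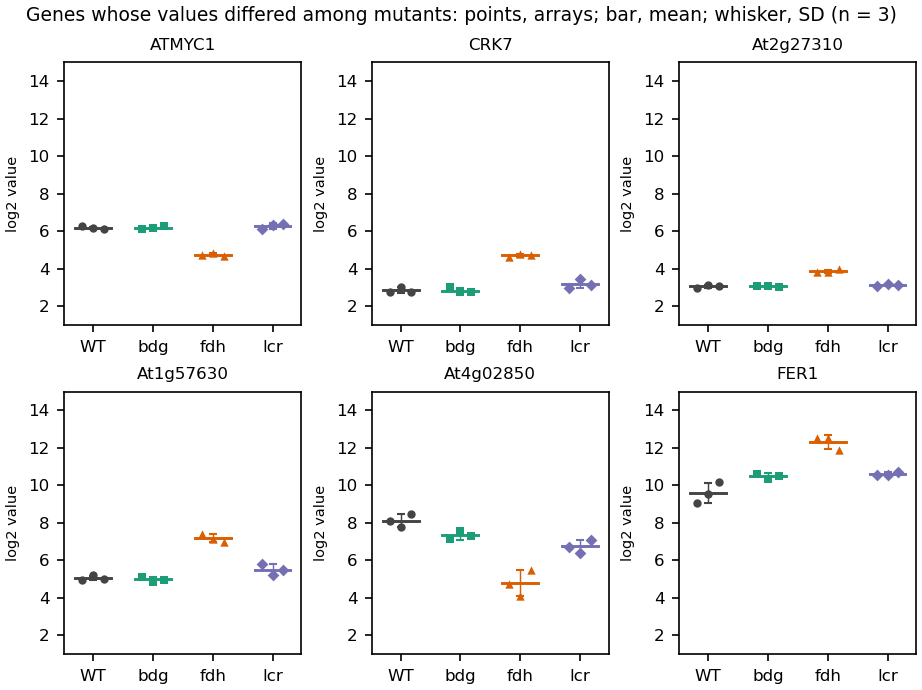
Log2 expression value of the 6 named genes that passed both the comparison with wild type and the F test among mutants, on each array, with the mean (bar) and SD (whisker) of 3 arrays. The fdh arrays of ATMYC1, at 4.66 to 4.82, lie under all others, and those of FER1, at 11.90 to 12.54, above all others.

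The F test also called list members whose average did not pass. LEA14, a late embryogenesis abundant gene, read 8.08, 7.56 and 8.66 in wild type, 4.46, 5.09 and 6.15 in bdg, 10.03, 9.70 and 10.39 in fdh and 9.79, 10.35 and 10.41 in lcr. All bdg arrays lay below and all fdh and lcr arrays above wild type, the average was 0.38 (SE 0.36, adjusted p = 0.99), and the mutants differed (F test adjusted p = 0.00515). QQS, an orphan gene linked to starch, changed by -1.47, 4.06 and 0.06 in bdg, fdh and lcr (F test adjusted p = 0.00212, average 0.88, SE 0.29, adjusted p = 0.317). PAD3, of camalexin synthesis, changed by 0.04, 3.32 and 0.33 (F test adjusted p = 0.0301). WES1 and ASN1, an asparagine synthetase, changed by 0.06, 4.63 and 2.18 and by -0.57, 2.28 and 1.18 (F test adjusted p = 0.039 and 0.0288). Of the 205 list members with a named probe set, these 5, ATMYC1 and FER1 were the 7 that passed the F test.

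Rank Product, the method the study used, ranks ratios between arrays and takes no account of each probe set's own spread. Over the 27 ratios of a mutant to a wild-type array it placed 745 probe sets higher (3.28%) and 30 lower (0.132%) at an estimated share of false positives under 0.05. Of limma's 146 higher probe sets 137 were among the 745, and of its 41 lower ones 6 were among the 30. Without wild type replicate 1 or 2, Rank Product placed 1 probe set lower. The 608 that Rank Product alone placed higher had a median SE of 0.46 against 0.21 for the probe sets called by limma. EXLA1, MLO12, CAX3, FAR1, SAG13, RHL41 and BGL2, which did not pass limma, were among its higher probe sets, and YUC2 and UGT78D1, which did, were not among its lower ones. Some of these, such as MLO12, CAX3 and FAR1, were named only through the study's table of genes that had risen. The study made that table with Rank Product from these same arrays, so their place here was largely fixed by that naming.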

How the data were processed

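RNA of 12 leaf samples, 3 for each of 4 genotypes, was measured on 12 ATH1 arrays, and groups were taken from the sample labels. The authors processed the scans with GCRMA, whose version the sources used here do not state, and deposited log2 expression values, which were used as deposited. Of 22810 probe sets, 64 controls were left out. With limma 3.58.1 in R 4.3.3, 4 group means were fitted, the contrast of the mean of the mutants with wild type and the moderated F test among mutants were tested, and p-values were adjusted by Benjamini-Hochberg over 22746 probe sets at a threshold of 0.05. All adjusted p-values in the text are from these limma fits unless Rank Product (27 ratios, 100 permutations) is named. The number of arrays limits the precision, and the median SE of the average change was 0.158. All 3 wild-type arrays are shared by every comparison.

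Platform annotation named 13513 probe sets with 1 gene, the study's table of genes that rose named 235 more by locus, 503 had several genes and 8495 none. The members and gene lists were chosen with earlier results of these data known. The genes described are the 15 largest increases and 12 largest decreases without overlap of arrays, up to 3 called members of each list or, where none passed, the member of smallest p, the 6 called genes of smallest F test p, the 5 called genes with the highest wild-type level in each direction, and the wax and cutin genes; any other gene was chosen after its values were seen. Alternatives varied the low-value filter (log2 above 5 on at least 3 arrays), normalization, variance model, array weights, replicate block, arrays and genotypes included, and test, and the fits that used the actin difference were chosen after seeing the data. The scripts were tested on simulated data. The authors' lists of changed genes were used for names only, and no sequences or promoters were analysed here.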

Additional observations from a re-analysis of the deposited data

Results flagged for a closer look

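A difference among the mutants was called by limma's moderated F test for 11 genes of the lists or of those described above. The adjusted p was 0.000414 for ATMYC1. It was 0.00212 for QQS, for CRK7, for At2g27310 and for At1g57630, and 0.00515 for LEA14. These 6 calls passed without every single array. The calls for ASN1 (0.0288), PAD3 (0.0301), WES1 (0.039), At4g02850 (0.044) and FER1 (0.0496) were less stable and did not pass without any 1 of 6, 7, 9, 11 and 9 arrays.

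The fdh value was the farthest from wild type in 10 of the 11, the exception being LEA14, where bdg changed by -2.87, fdh by 1.94 and lcr by 2.08. ASN1 and QQS also had opposite signs in bdg (-0.57 and -1.47) and fdh (2.28 and 4.06). The fdh group was the one without an array of large actin difference. With that difference as a covariate 7 of the 11 calls passed, and without the 3 arrays in which it was largest those of ATMYC1, QQS, CRK7 and At1g57630 did (adjusted p 0.00639 for ATMYC1 and 0.022 for each of the others). At2g27310 and LEA14 then missed the threshold (0.0508 each) and passed with the covariate (0.00953 and 0.00723).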

How the results depend on the processing

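Most counts of calls moved with the arrays or the settings, and the cause was not tested. The number of probe sets higher, 146, was 254 with the low-value filter, 259 with array weights, 241 in the average without bdg, 73 in that without fdh, 93 in a model of 2 groups, 90 without wild type array 2 and bdg array 1, 57 without the 3 arrays of largest actin difference and 745 by Rank Product, and without single arrays it ran from 65 to 195. The number lower, 41, was 69 with median centring, 23 with a variance trend, 113 with array weights, 70, 14 and 27 in the averages without bdg, fdh and lcr, 70 with the actin difference as a covariate and 12 with a limit of 2-fold, and ran from 20 to 59 without single arrays.

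Differences among mutants, 51, numbered 87 with the filter, 82 with centring, 834 with array weights, 25 without wild type array 2 and bdg array 1, 12 without the 3 arrays and 14 with the covariate, and 13 to 218 without single arrays. Probe sets with all mutant arrays above, 330, numbered 781 without wild type array 2 and bdg array 1, 771 without bdg, 835 without the 3 arrays and 335 to 633 without single arrays. Those with all below, 144, numbered 81 with the filter, 233 with a second quantile normalization, 371 with centring, 620, 472, 224, 226 and 724 without wild type array 2 and bdg array 1, bdg, fdh, lcr and the 3 arrays, and 152 to 607 without single arrays. Fewer arrays overlap less by construction. Rank Product placed 378 higher and 18 lower with the filter, and 614 to 768 and 1 to 37 without single arrays. List members higher, 13, ran from 7 to 14 without single arrays, and those lower, 2, were 0 with the filter and ran from 1 to 2.

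With the replicate block, 202 probe sets were higher, 57 lower and 83 different among mutants, and 15 list members higher and 3 lower. Of the calls, 123 higher and 29 lower probe sets were shared with the fit without it. Of 18 same-numbered pairs of arrays, 14 correlated above 0.1 in their deviations from the group means (lowest r = -0.356, mean 0.297). The mean for other pairs was -0.144. Deviations cancel within each genotype, so that mean is largely set by the one for same-numbered pairs and is no separate comparison. All pairs of replicate 3 arrays lay between 0.367 and 0.725, and 7 of 12 arrays correlated best with an array of their own number. Same-numbered arrays thus tended to deviate together, though not in every pair. The highest correlation of all, 0.74, was between arrays of different number, wild type array 2 and bdg array 1. Wild type array 2 and lcr array 1 correlated at 0.518, and bdg array 1 and lcr array 1, of equal number, at 0.548. These are the arrays of large actin difference, and whether RNA integrity was the cause was not tested. The labels do not say that a number marks a harvest round, so the main fit has no block. Its p-values take no account of the rounds. Calls that did not pass with the block were those of EXT4, AOC3, TI1, CCS, At3g56370, At5g43020, At5g19430, TBL36 and UGT78D1 (adjusted p 0.0515 to 0.0754), and of WES1 and FER1 among mutants (0.0581 and 0.0764).

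Of 67 named calls, 37 were lost without wild type replicate 1, 39 without the 3 arrays of largest actin difference, 29 in the average without fdh, 16 by Rank Product, 9 with the replicate block and 2 with median centring. Values near 0 changed sign: SHN3 (-0.40 to 0.63 without single arrays, -0.082 in the average without fdh), GI (-0.036 to 0.51), At4g34270 (-0.0068 to 0.19, -0.013 without wild type array 2 and bdg array 1 and -0.030 without the 3 arrays), CLV3 (-0.0078 to 0.011, -0.089 with centring, -3.9e-05 with weights and -0.0016 without lcr), ATHSP22.0 (-0.043 to 0.0014, 0.0028 without the 3 arrays), YAB3 (-0.27 to 0.39, 0.16 with weights and 0.082 without bdg) and At5g33370 (-0.23 to 0.023). ATMYC1 was 0.039 in the average without fdh. Signals under the array medians limit what the low probe sets can show.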

Other observations

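Genes outside the lists, chosen after their values were seen, added to the nitrogen and sugar genes that rose, all named through the study's table of genes that had risen. The nitrate uptake partner WR3 rose by 2.11 (SE 0.25, limma adjusted p = 0.00822), from 5.36 to 6.41 in wild type to between 7.41 and 9.44 in the mutants. LBD39, a factor that represses nitrate genes, rose by 1.77 (SE 0.22, adjusted p = 0.0095), with 1.85 for bdg, 1.54 for fdh and 1.93 for lcr. TRE1, the trehalase, changed by 1.78 (SE 0.25, adjusted p = 0.0144) with arrays that overlapped wild type, and its call ended without wild type replicate 1 or 3 (adjusted p 0.0551 to 0.0797).

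The blue copper protein BCB, a cell surface protein, rose by 3.24 (SE 0.33, adjusted p = 0.00437) from between 7.39 and 9.06 in wild type to between 10.21 and 12.39. At5g35735, named by the platform, rose by 2.81 (SE 0.31, adjusted p = 0.00543), with 1.77 for bdg, 3.94 for fdh and 2.73 for lcr. Both kept their call without every single array.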
